A study of Mus musculus with 18 samples.

Results

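Medullary thymic epithelial cells (mTECs) labelled Fezf2KO were compared with wild-type (WT) mTECs that the labels name as the control for them, with 3 libraries in each group. These 6 libraries are 6 of the 18 in the series, and the comparison covered every gene of the table that holds them: 49585 genes, of which 15695 had enough reads to be tested. All 6 came from mice of the strain C57BL/6. The labels give neither age nor sex, and neither the deleted part of Fezf2 nor a Cre driver, although column names call the KO libraries Fezf2cKO. Whether Fezf2 was removed in thymic epithelium only is therefore not known here. The cells were sorted, and SMART-seq v4 Ultra Low Input libraries were made of their total RNA. The labels do not say how the cells were gated or whether the triplicates were separate mice, so that p measures a spread among libraries that may be technical. Libraries are called WT A, B and C and KO A, B and C, letters that pair nothing.

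Developing T cells meet peptides from the whole body in the thymus, because mTECs transcribe genes that are otherwise limited to gut, liver, skin, pancreas and other organs. T cells that bind such self peptides strongly are deleted or become regulatory T cells. The transcription factors Aire and Fezf2 are known for driving these tissue-restricted genes in mTECs, and mice that lack either develop autoimmunity. Some mTECs also take on the look of peripheral cell types such as keratinocytes, enterocytes, tuft cells or microfold cells.

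Levels below are exon reads of a gene scaled to a library of 1e+06 exon reads (CPM), after edgeR's TMM factors adjusted the library sizes. Changes are log2 fold changes of KO over WT from edgeR's quasi-likelihood test, and adjusted p-values are Benjamini-Hochberg values over all genes tested. A gene is called higher or lower where its adjusted p was under 0.05. Depth was 3935102 to 5928985 exon reads, so 3 reads equal 0.506 to 0.762 CPM before TMM scaling. Library WT B stood apart. In it 1251 genes were at least 2-fold above both other WT libraries and 1446 at least 2-fold below, against 94 to 202 and 162 to 285 genes in the other 5 libraries. WT B also had the highest share of reads in introns, 17.5% against 13.2 to 14.5%, and the highest mitochondrial share, 2.02% against 1.25 to 1.72%. Results are therefore also given without it. The epithelial markers Epcam (549 to 674 CPM) and Krt8 (2242 to 2834 CPM) and the mTEC marker Aire (805 to 1297 CPM) were high in all 6 libraries. Other such markers were uneven. In WT B Cdh1 was at 171, Foxn1 at 149 and Cd80 at 19.1 CPM. The other 5 libraries held 522 to 814, 189 to 268 and 60.4 to 76.2 CPM of these. Krt18 and H2-Aa were not lowest in WT B.

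Fezf2 itself was at 653, 735 and 569.9 CPM in WT A, B and C and at 9.09, 8.44 and 23.4 CPM in KO A, B and C. All KO libraries lay far below all WT libraries, and KO C kept the most reads. The log2 fold change was -5.59 (SE 0.41, adjusted p = 0.000169). Intron reads of Fezf2 gave a log2 fold change of -5.31 (SE 0.43, adjusted p = 5.99e-06). Aire was at 1297, 1088 and 1242 CPM in the WT and at 977, 1042 and 805 CPM in the KO libraries. Its groups did not overlap, but its log2 fold change of -0.36 missed the threshold (adjusted p = 0.337). Without WT B the log2 fold change of Aire was -0.43 and its adjusted p 0.0346, and against the second control group described below it was -1.15 (adjusted p = 5.25e-05). Chd4, the ATPase of the NuRD chromatin remodelling complex, was at 41.7, 128 and 43.6 CPM in the WT and at 26.4, 31.1 and 38.3 CPM in the KO libraries. Its log2 fold change was -1.15 (adjusted p = 0.154), and -0.42 without WT B, the library with the high value (adjusted p = 0.178).

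Over all genes 389 were higher and 376 lower in the KO. These 765 are 4.87% of the 15695 tested, with 2.48% higher and 2.4% lower. Called genes changed 2.71-fold (median) upward and 2.82-fold downward, and 94 higher and 88 lower genes changed at least 4-fold. The median log2 fold change of all genes was -0.03. In 27.5% of the genes the groups did not overlap, 2221 with all KO libraries above and 2097 with all below, and 3024 genes had an unadjusted p under 0.05. All 389 higher and 376 lower genes were among those that did not overlap. For a called gene below, a lack of overlap is therefore description and adds nothing to the call. The number of calls changed with each library left out. Without WT B 2034 genes (12.6% of 16194 tested) were called, 1053 higher and 981 lower, and 760 of the 765 calls were kept. Without WT A 450 genes were called, and without KO A, KO B or KO C 212, 169 or 191. None of the 765 calls changed sign in these fits. Fewer libraries also leave less power, so a lost call cannot be told apart from a loss of power. A total of 86 higher and 54 lower genes kept their call with each library left out in turn. The KO libraries were also set against a second WT group of the same strain, the control of the Aire KO in the series, called Aire_WT here. That comparison called 3039 genes (19.4% of 15661 tested). It kept 600 of the 765 calls, and in 30 the log2 fold change took the other sign, whether or not it was called.

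**Figure D1:**
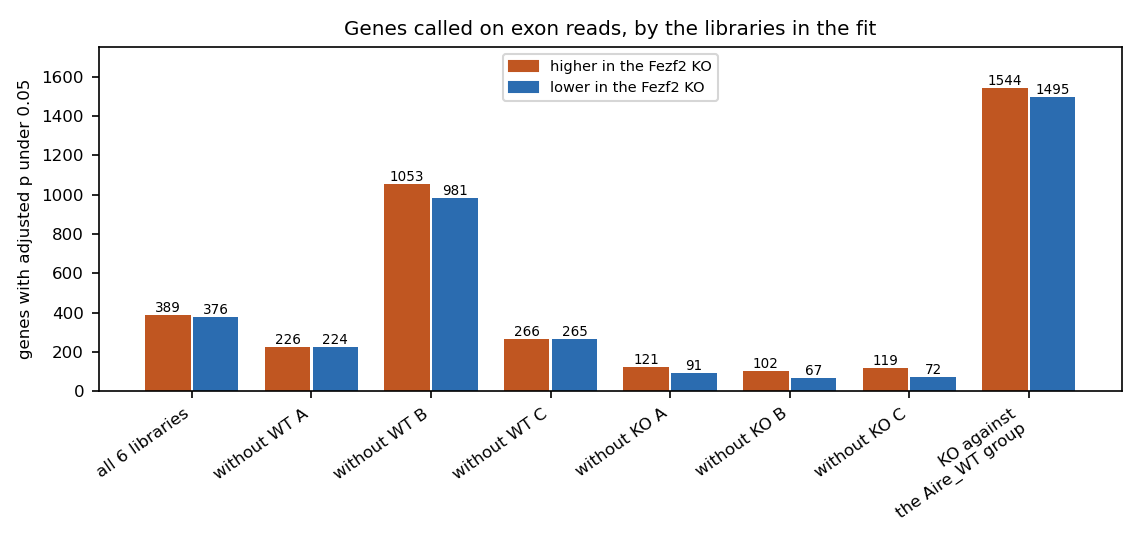
Bars give the number of genes with an adjusted p under 0.05 on exon reads (y axis) for all 6 libraries, for fits without 1 library each, and for the KO against the Aire_WT group, orange for higher and blue for lower in the KO. Leaving out WT B raised the calls to 1053 and 981, and leaving out any other library lowered them.

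The gene starts shown next belong to Fezf2 and to genes that results below turn on: the keratin Krt10, the annexin Anxa1 and members of the Sprr2a cluster, whose near-identical sequence limits how their reads can be assigned. Each line holds the 250 bases before a RefSeq gene start (GRCm38.p6), 5′ to 3′ on the gene's strand. Capitals mark TATAAA or GGGCGG, letters searched on both strands that cannot overlap each other.
Fezf2 (chr14:12345866-12346115, minus strand): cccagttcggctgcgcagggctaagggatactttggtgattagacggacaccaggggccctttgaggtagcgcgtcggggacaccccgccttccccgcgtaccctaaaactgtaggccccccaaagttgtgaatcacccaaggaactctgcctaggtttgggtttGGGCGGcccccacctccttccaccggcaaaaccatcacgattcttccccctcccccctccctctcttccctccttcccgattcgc
Krt10 (chr11:99389365-99389614, minus strand): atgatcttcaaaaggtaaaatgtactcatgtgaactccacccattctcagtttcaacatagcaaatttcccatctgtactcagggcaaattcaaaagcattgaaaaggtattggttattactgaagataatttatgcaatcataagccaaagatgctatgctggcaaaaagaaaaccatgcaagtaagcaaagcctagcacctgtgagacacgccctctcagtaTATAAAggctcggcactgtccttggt
Anxa1 (chr19:20390672-20390921, minus strand): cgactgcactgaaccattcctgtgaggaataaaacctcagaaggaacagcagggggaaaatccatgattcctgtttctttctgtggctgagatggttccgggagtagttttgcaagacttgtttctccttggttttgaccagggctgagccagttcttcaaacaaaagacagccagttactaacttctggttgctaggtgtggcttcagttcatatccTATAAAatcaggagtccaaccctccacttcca
Sprr2a2 (chr3:92250397-92250646, plus strand): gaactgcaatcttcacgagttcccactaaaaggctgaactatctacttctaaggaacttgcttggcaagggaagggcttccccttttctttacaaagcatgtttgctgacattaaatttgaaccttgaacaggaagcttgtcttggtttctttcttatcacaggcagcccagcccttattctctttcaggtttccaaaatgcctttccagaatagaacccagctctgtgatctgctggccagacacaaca
Sprr2a3 (chr3:92285054-92285303, plus strand): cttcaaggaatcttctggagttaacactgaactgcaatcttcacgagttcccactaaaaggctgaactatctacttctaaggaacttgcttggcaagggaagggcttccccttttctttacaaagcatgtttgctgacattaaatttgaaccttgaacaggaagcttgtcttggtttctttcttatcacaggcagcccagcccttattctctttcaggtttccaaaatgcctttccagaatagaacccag
GGGCGG began at position -85 of Fezf2, and TATAAA began at -26 of Krt10 and at -32 of Anxa1, counted back from the start. Of 27025 windows of this length in the RefSeq table, 13% held TATAAA and 32.9% held GGGCGG on either strand. The window of Sprr2a1, not shown, equalled that of Sprr2a2 at 250 of 250 bases, and Sprr2a3 shared a run of 222 bases with it. A count of motifs over all called genes was void, since a window was held for 69.4% of the higher and 73.9% of the lower genes, under the 80% required.

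The lower genes of largest change came from unrelated organs. Saa3, an acute-phase serum amyloid, was at 769, 1618 and 728 CPM in the WT and at 99.95, 99.0 and 67.0 CPM in the KO libraries. Its log2 fold change was -3.55 (SE 0.35, adjusted p = 0.000749). Krt10, a keratin of suprabasal epidermis, was at 175, 281 and 206 CPM against 36.5, 34 and 24.3 CPM (log2 fold change -2.80, SE 0.26, adjusted p = 0.000494). In both genes WT B was the highest library, and no KO library reached a WT library. Resp18, a protein of neuroendocrine secretory granules, was at 119, 249 and 128 CPM against 23.9, 25.7 and 14.9 CPM (log2 fold change -2.94, adjusted p = 0.00167). Pck1, an enzyme that commits liver and kidney cells to glucose synthesis, was at 87.2, 59.5 and 100.4 CPM against 8.91, 8.23 and 5.96 CPM (log2 fold change -3.41, adjusted p = 0.000259). In Pck1 the lowest WT library was WT B. H1foo, the linker histone of oocytes, was at 18.5 to 22.4 CPM in the WT and 2.29 to 3.70 CPM in the KO libraries (log2 fold change -2.81). Kif26a, a member of the kinesin family, had a log2 fold change of -2.75. Fabp9, a fatty acid-binding protein of testis, was at 129, 278 and 109.5 CPM against 17.5, 8.02 and 13.5 CPM (log2 fold change -3.72). Pnp2, a purine nucleoside phosphorylase, was at 22.9, 31.4 and 23.6 CPM against 0.699, 0.823 and 0.229 CPM (log2 fold change -5.38). Pnp2 has a close copy next to it, Pnp, so the sharing of reads between them is uncertain. All these genes kept their call with each library left out in turn and against the Aire_WT group, where Krt10 had a log2 fold change of only -0.95 (adjusted p = 0.0222) and Saa3 one of -2.38. The Aire_WT values of the other 6 ranged from -2.18 to -5.70.

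**Figure D2:**
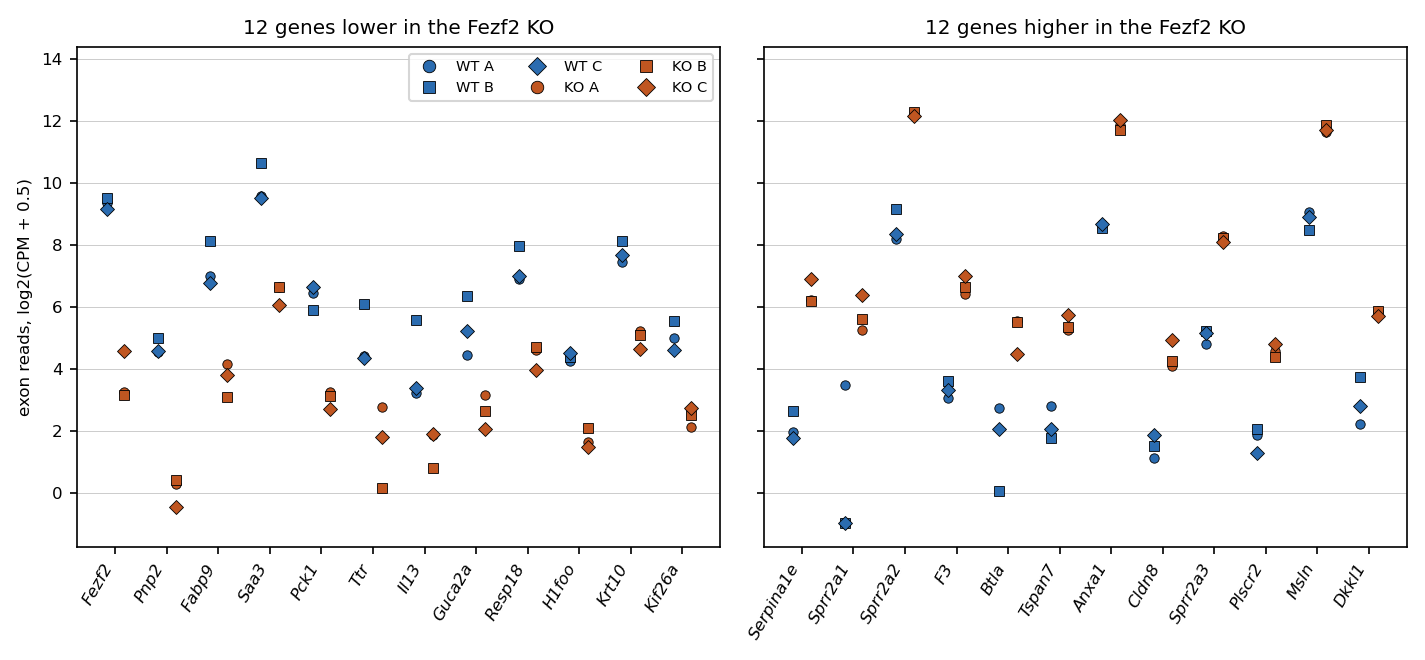
Each symbol is 1 library's level of a gene as log2(CPM + 0.5), blue for WT and orange for KO, with circles, squares and diamonds for libraries A, B and C. The genes were chosen as called genes whose KO and WT libraries do not overlap. In Ttr, Il13 and Guca2a the square of WT B lies above the other WT symbols.

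In Ttr, Il13 and Guca2a the size of the drop moved with WT B. Ttr, the plasma carrier of thyroid hormone and retinol, was at 20.8, 67.8 and 19.7 CPM in the WT and at 6.29, 0.617 and 2.98 CPM in the KO libraries. Il13, a cytokine of type 2 immunity, was at 8.80, 47.2 and 9.87 CPM against 3.15, 1.23 and 3.21 CPM. Guca2a, the intestinal peptide guanylin, was at 21.2, 81.5 and 36.8 CPM against 8.39, 5.76 and 3.67 CPM. Each was highest in WT B, and no group overlapped the other. Their log2 fold changes of -3.41, -3.09 and -2.94 (adjusted p = 0.0215, 0.0344 and 0.0103) became -2.57, -1.87 and -2.25 without WT B, with the call kept. Ttr and Guca2a lost the call without KO B or KO C, and Il13 without any 1 of the KO libraries. Against the Aire_WT group Il13 was lower (-2.40), and Ttr (-1.67, adjusted p = 0.0806) and Guca2a (-1.60, adjusted p = 0.0509) were not called.

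The lower genes of highest mean level over all 6 libraries were Fcgbp, Hdc and Cd52. Fcgbp, a mucin-like protein that binds IgG, was at 1852, 2197 and 2297 CPM in the WT and 665, 757 and 1296 CPM in the KO libraries (log2 fold change -1.22, adjusted p = 0.0298). Hdc, the enzyme that makes histamine, was at 1010.0, 642 and 979.6 CPM against 453, 416 and 348 CPM (log2 fold change -1.11, adjusted p = 0.0233). Cd52, a surface glycoprotein abundant on lymphocytes, was at 553, 1361 and 601 CPM against 275, 258 and 369 CPM (log2 fold change -1.48, adjusted p = 0.0366). Each had groups that did not overlap, and WT B stood above the other WT libraries in Cd52 and below them in Hdc. Fcgbp lost the call without KO A, KO B or WT C, Hdc without any 1 library except WT B, and Cd52 without any 1 of the KO libraries. Over the 6 fits without 1 library their log2 fold changes ranged from -1.57 to -1.04, -1.29 to -1.0 and -1.70 to -0.94. Fcgbp was not called against the Aire_WT group (-0.63, adjusted p = 0.062).

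Genes listed as earlier examples of a need for Fezf2 in mTECs were mostly lower. The list was chosen with earlier results of these data known, so its counts are a description and no independent check. Of 11 such examples 9 were lower and 0 higher, beside 2.4% lower among all genes tested, and their median log2 fold change was -2.30. Besides Fabp9, Krt10, Resp18 and Ttr these were Apoc3, an apolipoprotein of triglyceride-rich particles (33.9 ± 10.5 CPM in WT against 5.22 ± 0.8 in KO, SD, n = 3), and Maoa, a monoamine oxidase (25.6 ± 5.16 against 5.22 ± 1.41 CPM). The other lower members were Nol4 (log2 fold change -1.91), the calcium buffer Calb1 (-1.59) and the sulfotransferase Sult1c2 (-1.28). Kcnj5, a potassium channel, missed the threshold at -1.37 (adjusted p = 0.0848), and Csmd1 had a log2 fold change of 0.62 (adjusted p = 0.313). Without WT B 9 were lower and 0 higher (median -2.15). Against the Aire_WT group 9 were lower and 0 higher as well (median -2.09), but Kcnj5 (-2.09, adjusted p = 0.000661) took the place of Ttr. Summed over the 11 genes the level was 651, 1085 and 647 CPM in the WT and 158, 153 and 110.1 CPM in the KO libraries. Apoc3, Maoa, Fabp9, Krt10 and Resp18 kept the call with each library left out, whereas Nol4, Calb1 and Sult1c2 lost it without any 1 of the KO libraries or WT A. Of 11 examples of Aire-dependent genes Ins2 alone was lower and 0 were higher (median -0.45). This list turned with the control: it held 0 higher and 3 lower without WT B (median 0.01) and 4 higher and 2 lower against the Aire_WT group (median 0.59). Whether the lists differ was not tested.

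Genes of the gut were lower in many cases. Of 22 intestinal genes 9 were lower and 1 was higher, with a median log2 fold change of -1.08. For this and every other list, the shares among all genes tested were 2.48% higher and 2.4% lower. The fit without WT B called 12.6% of all genes tested, and the one against the Aire_WT group 19.4%. Vil1, the villin of the brush border, was at 85.7, 73.6 and 75.8 CPM in the WT and at 20.3, 12.1 and 16.1 CPM in the KO libraries (log2 fold change -2.27, SE 0.24, adjusted p = 0.00108). Lypd8, a colonic protein that keeps bacteria off the epithelium, was at 262, 412 and 285 CPM against 114, 84.4 and 50.5 CPM (log2 fold change -1.94). Lgals4, an intestinal galectin, was at 102 to 153 CPM against 37.0 to 38.3 CPM (log2 fold change -1.67). The groups of these genes were well apart. The fatty acid carriers Fabp1 (-2.24) and Fabp2 (-1.89), the peptides Guca2a and Guca2b (-1.80), the microvillar cadherin Cdhr5 (-1.15) and the mucin Muc13 (-1.05) were lower too. Anpep, an aminopeptidase of the brush border and of many other cells, was the higher gene, at 4.19, 5.50 and 5.54 CPM against 27.8, 24.9 and 21.6 CPM (log2 fold change 2.29). Cdx1 and Cdx2, factors of intestinal fate, had log2 fold changes of -0.40 and -1.43 and were not called (adjusted p = 0.313 and 0.222). Vil1, Lgals4 and Anpep kept the call with each library left out, Lypd8 lost it without KO B, and the others lost it without 2 or more libraries. Without WT B 10 were lower and 1 higher, and against the Aire_WT group 8 were lower and 5 higher (median -0.33).

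Of 11 genes of mTECs with an enterocyte and hepatocyte look 4 were lower and 0 higher (median -1.05). They were Fabp1, Muc13, Apoc3 and Apoa4, an apolipoprotein of chylomicrons at 365, 486 and 439 CPM in the WT and 192, 145 and 123 CPM in the KO libraries (log2 fold change -1.49, adjusted p = 0.00625). Hnf4a and Hnf4g, factors of enterocyte and hepatocyte identity, had log2 fold changes of -0.97 and -1.09 (adjusted p = 0.387 and 0.0745). Without WT B 6 were lower, and against the Aire_WT group 7, with 0 higher in both. Of 21 genes of liver and plasma proteins 4 were lower and 1 higher, with 2 higher and 7 lower without WT B and 4 higher and 6 lower against the Aire_WT group. Trf, the iron carrier transferrin, was at 281 ± 26.8 CPM in WT against 86.1 ± 23.5 CPM in KO (SD, n = 3). Its log2 fold change was -1.71 (adjusted p = 0.00359). Hp, which codes for the haemoglobin scavenger haptoglobin, was higher, at 39.6, 52.9 and 43.8 CPM against 102, 104 and 108 CPM (log2 fold change 1.21). Alb, which codes for albumin, had a log2 fold change of -0.38 (adjusted p = 0.817). Of 14 pancreatic genes Ins2 (insulin, -1.84), Reg1 (-1.64) and the digestive enzyme Ctrb1 (-1.20) were lower and 0 were higher (median -0.66). The pancreatic list held 1 higher and 3 lower without WT B, and 2 higher and 2 lower against the Aire_WT group (median 0.35), so that its median turned. Trf kept the call with each library left out, and Apoa4, Hp, Ins2, Reg1 and Ctrb1 each lost it without 2 or more of the KO libraries.

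The higher genes of largest change coded for secreted, membrane and phospholipid-binding proteins of several kinds. Anxa1, which codes for a phospholipid-binding protein that restrains inflammation, was at 407, 379 and 411 CPM in the WT and at 3754, 3371 and 4241 CPM in the KO libraries. Its log2 fold change was 3.25 (SE 0.20, adjusted p = 9.75e-05). Msln, which codes for the membrane-anchored mesothelin, was at 531, 359.9 and 480.3 CPM against 3250.0, 3789 and 3386 CPM (log2 fold change 2.93, SE 0.22, adjusted p = 0.000169). No KO library came near the WT range in either gene. F3, the tissue factor that starts blood coagulation, was at 7.76, 11.8 and 9.39 CPM against 85.4, 98.8 and 128 CPM (log2 fold change 3.44, SE 0.26, adjusted p = 0.000169). Serpina1e, a mouse form of alpha-1 antitrypsin, was at 3.35, 5.76 and 2.89 CPM against 74.4, 72.4 and 119.5 CPM (log2 fold change 4.48, adjusted p = 0.000169). The tetraspanin Tspan7 had a log2 fold change of 3.29, the tight junction claudin Cldn8 one of 3.18, the phospholipid scramblase Plscr2 one of 3.01 and Dkkl1, a secreted relative of the dickkopf proteins, one of 2.85. Btla, an inhibitory receptor of lymphocytes, was at 6.08, 0.524 and 3.61 CPM against 45.8, 44.9 and 22 CPM (log2 fold change 3.42). Btla was lowest in WT B, lost its call without KO A or KO B, and had log2 fold changes of 2.94 to 4.14 over the fits without 1 library. Ly6e, a membrane-anchored protein of high level, was at 1182, 1592 and 1300.0 CPM against 2570.0, 2588 and 2689 CPM (log2 fold change 0.95). Ly6e kept its call in the fit without WT B alone. All genes of this paragraph were called higher against the Aire_WT group, Msln and Plscr2 at smaller log2 fold changes of 1.52 and 1.54.

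The Sprr2a genes, whose products are cross-linked into the cornified envelope of stratified epithelium, and the neighbouring Gm43740 formed a run of 4 higher genes (chr3:92170221-92291405). Sprr2a2 was at 292, 572 and 324 CPM in the WT and at 4713, 5004 and 4572 CPM in the KO libraries (log2 fold change 3.59, SE 0.29, adjusted p = 0.000229). Sprr2a3 was at 27.3, 36.7 and 34.9 CPM against 316, 299.6 and 276 CPM (log2 fold change 3.17). Both kept the call with each library left out. These genes are near-identical copies, and how the authors' counting divided reads between them, Sprr2a1 and Sprr2a2 above all, is uncertain. The deposited positions of Sprr2a1 (chr3:92215799-92221911) and Sprr2a2 (chr3:92215920-92256724) also overlap, so the 4 genes of the run are not 4 separate loci. Sprr2a1 was at 10.7, 0 and 0 CPM against 37.2, 48.6 and 83.7 CPM and lost its call without WT C or any 1 of the KO libraries. Of lower genes 5 runs of 3 neighbours were called: Pnp2 with the ribonucleases Ang and Rnase4 on chromosome 14, Pck1, Zbp1 and Pmepa1 on chromosome 2, Tnfsf9, Cd70 and C3 on chromosome 17, the butyrophilin-like Btnl2 and Btnl1 with BC051142 on the same chromosome, and Ms4a10, Ms4a18 and AW112010 on chromosome 19.

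Genes of keratinocyte-like mTECs moved in both directions. Of 26 genes 7 were higher and 2 lower, with a median log2 fold change of 0.24. The lower ones were Krt10 and its partner Krt1 of the spinous layer, at 56.6, 74.4 and 85.2 CPM in the WT and 19.7, 18.7 and 18.6 CPM in the KO libraries (log2 fold change -1.92). The higher ones were Sprr2a1, the envelope protein Ivl (1.09), the cross-linking enzyme Tgm1 (1.25), Sbsn (1.72), the protease inhibitor Spink5 (1.14), the desmosomal cadherin Dsc2 (1.21) and the transcription factor Grhl1 (1.2). Tgm1 was at 21.8, 21.5 and 24.6 CPM against 50.5, 47.3 and 63.3 CPM, and Spink5 at 183, 258 and 262 CPM against 412, 481 and 654 CPM. In these genes the KO libraries lay above all WT libraries. Lor, which codes for loricrin, had a log2 fold change of 1.23 (adjusted p = 0.061) and Flg, which codes for filaggrin, one of -0.74 (adjusted p = 0.313). Krt1 and Krt10 kept the call with each library left out, and each of the 7 higher genes lost it without any 1 of the KO libraries. Without WT B 12 were higher and 2 lower, and against the Aire_WT group 15 were higher and 1 lower, Krt1 no longer called (-0.29, adjusted p = 0.403). These fits called 12.6% and 19.4% of all genes tested. Scel, which codes for the envelope protein sciellin and is on no list, was at 15.5 to 21.4 CPM against 122 to 127 CPM (log2 fold change 2.82).

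Of 12 annexins, which bind phospholipid in the presence of calcium, 4 were higher and 1 lower (median 0.39). Anxa2 was at 266, 356 and 282 CPM in the WT and at 907, 918 and 906 CPM in the KO libraries (log2 fold change 1.60, SE 0.19, adjusted p = 0.00197). Anxa9 and Anxa3 had log2 fold changes of 1.35 and 0.99. Anxa10, an annexin of stomach epithelium, went the other way, at 97.7, 96.9 and 91.3 CPM against 15.2, 15.2 and 15.6 CPM (log2 fold change -2.63, SE 0.20, adjusted p = 0.000169). Within each group the spread of Anxa10 was small beside this drop, and WT B lay between WT A and WT C. Of 19 genes of claudins and tight junctions 5 were higher and 1 lower (median 0.63). Besides Cldn8 the higher ones were Cldn6 (1.59), Cldn23 (1.57), Cldn9 (1.22) and Ocln, which codes for occludin (1.04), and the lower one was Cldn2, a claudin that forms pores (-1.63). Anxa1, Anxa2, Anxa10, Cldn8 and Cldn23 kept the call with each library left out, and the others lost it without any 1 of the KO libraries. Anxa3 and Cldn9 were not called against the Aire_WT group (log2 fold changes 0.33 and 0.08, adjusted p = 0.122 and 0.883).

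Of 14 cathepsins and related proteases, which cut proteins in lysosomes and shape peptides for presentation, 6 were higher and 0 lower (median 0.64). Ctsd was at 255, 234 and 293 CPM in the WT and at 936, 894 and 1001 CPM in the KO libraries (log2 fold change 1.86, SE 0.19, adjusted p = 0.000886). Ctsl, which trims invariant chain in thymic epithelium, was at 361, 280.0 and 504 CPM against 1197, 1069 and 1289 CPM (log2 fold change 1.64, SE 0.24, adjusted p = 0.00517). In both genes the KO libraries lay far above all WT libraries. Ctsc, Ctsh, Ctsa and Ctsb had log2 fold changes of 1.10, 0.96, 0.93 and 0.78. Ctss, which does the work of Ctsl in other presenting cells, had one of 0.52 (adjusted p = 0.215). Summed over the 14 genes the level was 2684 to 2861 CPM in the WT and 5448 to 5975 CPM in the KO libraries. Ctsd and Ctsl kept the call with each library left out, and the other 4 lost it without any 1 of the KO libraries. The list held 9 higher and 0 lower without WT B and 7 higher and 2 lower against the Aire_WT group, where Ctsh was not called (0.16, adjusted p = 0.608). Of 11 genes of lung and airway secretion Ltf (1.69), Scgb1a1 (1.28) and Muc5b (2.23) were higher and Lyz1 (-1.67) and Bpifb1 (-1.06) lower, with 6 higher and 1 lower against the Aire_WT group. Lyz1, a lysozyme, was at 664, 872 and 781 CPM against 273, 254 and 200 CPM and kept the call with each library left out, unlike the other 4. Ltf, which codes for lactoferrin, was at 384, 100.3 and 144 CPM against 642, 658 and 734 CPM, with WT A far above the other WT libraries.

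**Figure D3:**
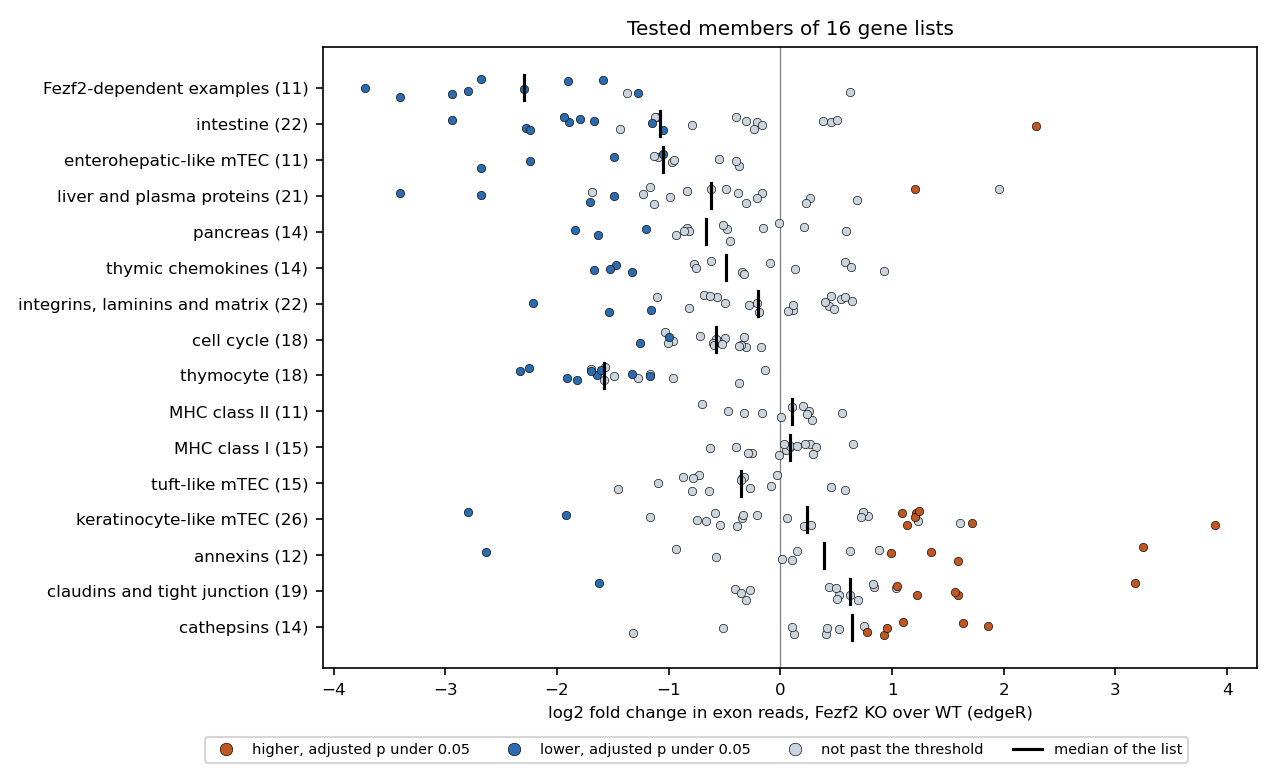
Each point is a tested member of a gene list (number tested in brackets) at its log2 fold change in exon reads, KO over WT, coloured where the adjusted p was under 0.05, with the median of the list as a black bar. Medians lie at -2.30 for the Fezf2-dependent examples and at 0.64 for the cathepsins, and the keratinocyte-like list spans both sides.

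Genes of mTEC maturation and of T cell attraction changed in part. Of 15 maturation genes Fezf2, Hdc and the chemokine Ccl17 (-1.33) were lower and Pdcd1lg2 (1.12), a ligand of the inhibitory receptor PD-1, was higher (median -0.11). Pdcd1lg2 lost its call without KO A, KO B or WT C, and Ccl17 without WT C or any 1 of the KO libraries. The list held 4 higher and 5 lower without WT B and 0 higher and 8 lower against the Aire_WT group (median -0.81), where Pdcd1lg2 was not called (0.44, adjusted p = 0.141). The costimulatory Cd80, Cd86 and Cd40 had log2 fold changes of 0.59, -0.11 and 0.40 and were not called (adjusted p = 0.423, 0.854 and 0.298). Of 14 thymic chemokines 4 were lower and 0 higher, with 2 higher and 5 lower without WT B and 4 higher and 7 lower against the Aire_WT group. Ccl20, a ligand of Ccr6, was at 439.8, 676 and 365 CPM in the WT and at 160.4, 182 and 173 CPM in the KO libraries (log2 fold change -1.52, adjusted p = 0.00848). Ccl19, a ligand of Ccr7, was at 558, 1235 and 451 CPM against 310.0, 275 and 224 CPM. The groups did not overlap in either gene, and both were highest in WT B. The log2 fold change of Ccl19 was -1.47 (adjusted p = 0.0414), and the gene has close copies with which its reads may be shared. Ccl27a, a skin chemokine, had one of -1.67, and Ccl21a, the chemokine of immature mTECs, one of -0.35 (adjusted p = 0.553). Of 12 costimulatory and coinhibitory genes Pdcd1lg2 and Cd83 were higher and Tnfsf9 (-0.93) and Lgals9 (-1.05) lower, with 1 higher and 5 lower against the Aire_WT group. Cd83, which keeps MHC class II on the surface of thymic epithelium, was at 96.2, 29.6 and 95.3 CPM against 393, 315 and 271 CPM (log2 fold change 2.14), lowest in WT B. The 4 chemokines, Cd83, Tnfsf9 and Lgals9 lost the call without any 1 of the KO libraries.

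Of 14 genes of immature mTECs Krt5 and Plet1 (1.10) were higher and Krt15 (-1.08) lower, with 4 higher and 4 lower without WT B and 3 higher and 6 lower against the Aire_WT group. Krt5, a keratin of basal epithelium, was at 333, 429 and 381 CPM in the WT and at 832, 1041 and 1384 CPM in the KO libraries (log2 fold change 1.51, SE 0.23, adjusted p = 0.00635). Its usual partner Krt14 had a log2 fold change of -0.35 (adjusted p = 0.362). Of 22 integrins, laminins and matrix genes 3 were lower and 0 higher: Col17a1 (-2.21), a collagen of hemidesmosomes, Fn1 (-1.53), which codes for fibronectin, and Itgb8 (-1.16), an integrin that activates TGF-beta. Col17a1 was at 84.3, 93.0 and 84.7 CPM against 24.3, 15 and 17.0 CPM. Krt5 and Col17a1 kept the call with each library left out, whereas Plet1, Krt15, Itgb8 and Fn1 each lost it without 3 or more libraries. Krt15 and Fn1 were not called against the Aire_WT group (-0.17 and -0.74, adjusted p = 0.688 and 0.0884). Without WT B 8 of the 22 matrix genes were lower and 0 higher. Of 18 cell cycle genes Mki67 (-1.25) and Top2a (-1.0) were lower and 0 higher (median -0.58), beside 2.4% lower among all genes tested. Mki67 lost the call without WT A or any 1 of the KO libraries, and Top2a without any 1 library except WT B. Of 17 genes of NF-kB and TNF receptor signalling Tnfaip3, an inhibitor of NF-kB, was higher (1.42) and 0 were lower. Tnfaip3 lost the call without WT C or any 1 of the KO libraries. This 1 call is 5.88% of the list, near the 4.87% called among all genes tested. With all 6 libraries edgeR called no gene among 11 of MHC class II, 15 of MHC class I, 15 tuft-like, 15 immediate-early, 21 Wnt and 17 TGF-beta and BMP genes. At 4.87% called among all genes tested, 0 calls in lists this short say little. Without WT B 12.6% of all genes tested were called. There MHC class II held 4 higher and 2 lower genes, and MHC class I 2 higher and 0 lower. Against the Aire_WT group (19.4% called) MHC class II held 0 higher and 3 lower genes and MHC class I 3 higher and 0 lower. The Wnt list held 1 higher and 6 lower there. The immediate-early genes, which respond to handling of cells, held 11 higher and 1 lower gene against the Aire_WT group, and the tuft-like genes 6 higher and 0 lower. The tuft-like list turned with the control. Its median was -0.36 with all 6 libraries, -0.47 without WT B (0 higher and 2 lower) and 0.60 against the Aire_WT group.

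Transcripts of thymocytes, the T cell precursors that surround mTECs and can stick to them in a sort, moved with the lower genes. Of 18 thymocyte genes 9 were lower and 0 higher, beside 2.4% lower among all genes tested. The median log2 fold change of the 18 was -1.58. In 16 all KO libraries lay below all WT libraries, as they did in 2097 of the 15695 genes tested. Summed over the 18 genes the level was 951, 992 and 532 CPM in the WT and 252, 328 and 334 CPM in the KO libraries. None of the 18 was at 0 reads over the libraries. Lck, a kinase of the T cell receptor pathway, was at 136, 120.2 and 90.3 CPM against 41.4, 47.7 and 49.3 CPM (log2 fold change -1.32). Rag2, Cd8b1, Cd3d, Trbc1, Lat, Cd8a, Dntt and Cd3g had log2 fold changes of -2.33 to -1.17. Cd4 had one of -0.37 (adjusted p = 0.627) and Cd3e one of -0.96 (adjusted p = 0.0649). In bulk RNA fewer cells of a type and less RNA per cell cannot be told apart. Against the Aire_WT group 6 thymocyte genes were higher in the KO and 0 lower, so that the direction turned. The Aire_WT libraries held 106, 148 and 209 CPM of these transcripts, without TMM scaling. Each of the 9 lower thymocyte genes lost the call without any 1 of the KO libraries. The part of thymocyte RNA in the values of other lower genes, such as Cd52 and the cell cycle genes, was not tested.

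**Figure D4:**
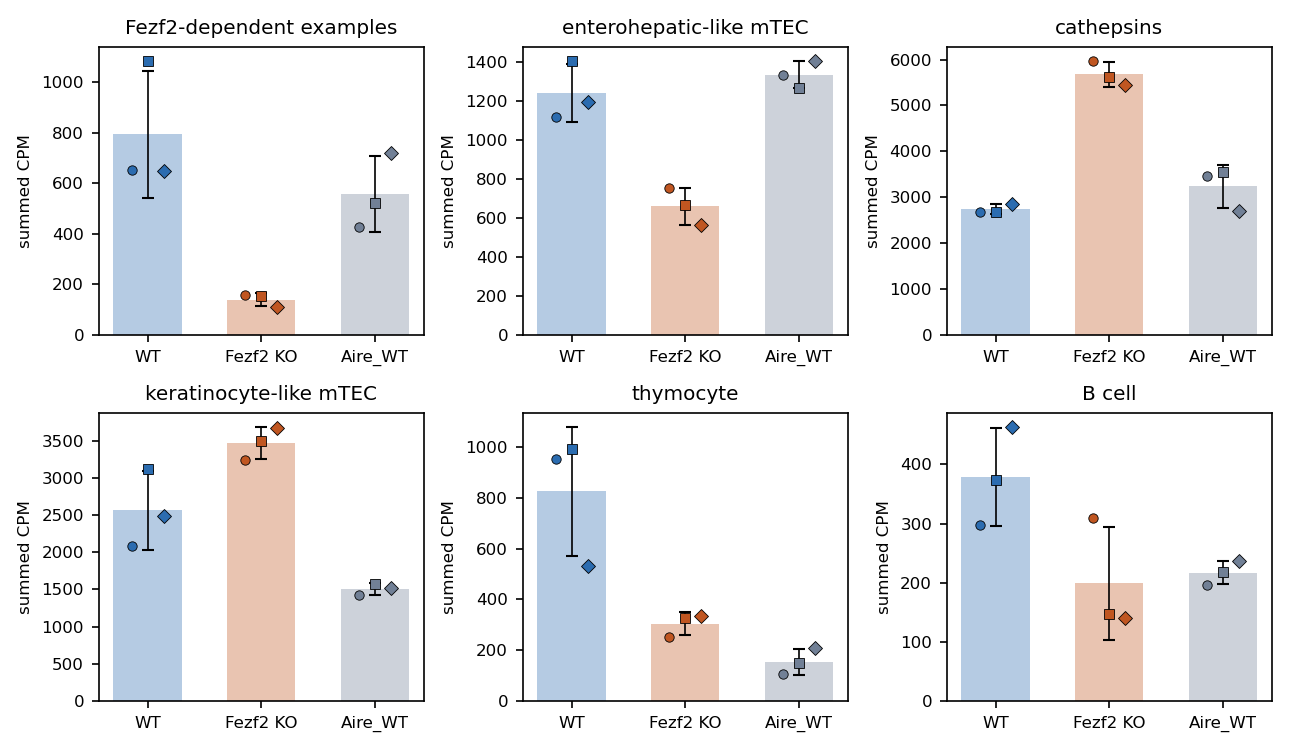
Summed level in CPM (y axis, from 0) of gene lists in each library, with circles, squares and diamonds for libraries A, B and C of a group, bars for the group mean and error bars for the SD (n = 3). Thymocyte genes were at 532 to 992 CPM in the WT, 252 to 334 CPM in the KO and 106 to 209 CPM in the Aire_WT libraries, whereas the Fezf2-dependent examples were lowest in the KO libraries. The Aire_WT sums were not TMM-scaled, unlike the others.

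Of the other cell types that a sort could hold, B cell genes summed to 298 to 464 CPM in the WT and 139.7 to 309 CPM in the KO libraries, with Ighm lower (-1.88) and 0 of 9 higher. Fibroblast and mesenchyme genes summed to 158 to 166 CPM against 222 to 251 CPM. Of 9 tested Lum (1.96), a matrix proteoglycan, and Dpp4, a surface protease found on several cell types, were higher and 0 lower. Dpp4 was at 17.4, 17.6 and 23.4 CPM in the WT and at 103, 105 and 81.9 CPM in the KO libraries (log2 fold change 2.31) and kept the call with each library left out. Of the defining fibroblast markers, Pdgfra was at 0 to 4.13 CPM in all 6 libraries. Col1a1 was at 18.3 to 22.4 CPM in the WT and 18.9 to 34.4 CPM in the KO libraries. Among 11 dendritic cell and macrophage, 7 endothelial and 6 erythroid genes edgeR called 0. Endothelial genes summed to 62.4 to 78.8 CPM in the WT and 88.5 to 145 CPM in the KO libraries (median log2 fold change 0.72). Cortical TEC genes summed to 1625 to 2194 CPM against 2453 to 3308 CPM, with Cd83 alone called of 12. The groups did not overlap in either sum. Dendritic cell and macrophage genes summed to 187 to 283 against 237 to 279 CPM, erythroid genes to 169 to 332 against 93.4 to 345 CPM and neutrophil genes to 848 to 1592 against 1459 to 1562 CPM, and these overlapped. Of 10 neutrophil genes Ltf alone was called. The part of other cell types in the results was not tested.

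Reads in introns, which come largely from RNA not yet spliced, gave a second reading of the same libraries and are not independent of the exon reads. On intron reads 303 of 10614 genes tested were called (2.85%), 159 higher and 144 lower, and 1678 had an unadjusted p under 0.05. Of the 389 genes higher on exon reads 282 could be tested on both. Their median log2 fold change was 1.39 in exon and 1.0 in intron reads, and 90 of them were called higher and 0 lower on intron reads. Of the 376 lower genes 227 could be tested on both, with medians of -1.38 in exon and -1.03 in intron reads, and 59 were called lower and 0 higher on intron reads. Both sets were chosen on their exon change, so larger exon medians and few opposite intron calls were partly fixed by that choice. Over all 9498 genes tested on both, the medians were 0.009 in exon and -0.009 in intron reads. Nos2, the inducible nitric oxide synthase, was at 243, 218 and 251 intron CPM in the WT and at 41.8, 28.6 and 27.4 in the KO libraries. Its intron log2 fold change was -2.86 (adjusted p = 2.95e-05) and its exon one -2.33 (adjusted p = 0.00651). Brinp3, a gene best known in neurons, had log2 fold changes of -2.59 in intron and -2.44 in exon reads. In the same order Anxa1 had 2.73 and 3.25, Scel 2.50 and 2.82, Msln 2.90 and 2.93, and Fabp9 -3.68 and -3.72. Il13, whose exon level was far higher in WT B, was at 42.9, 27.1 and 58.9 intron CPM in the WT and 8.12, 13 and 5.21 in the KO libraries (intron log2 fold change -2.28, adjusted p = 0.0159), and there WT B was the lowest WT library.

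**Figure D5:**
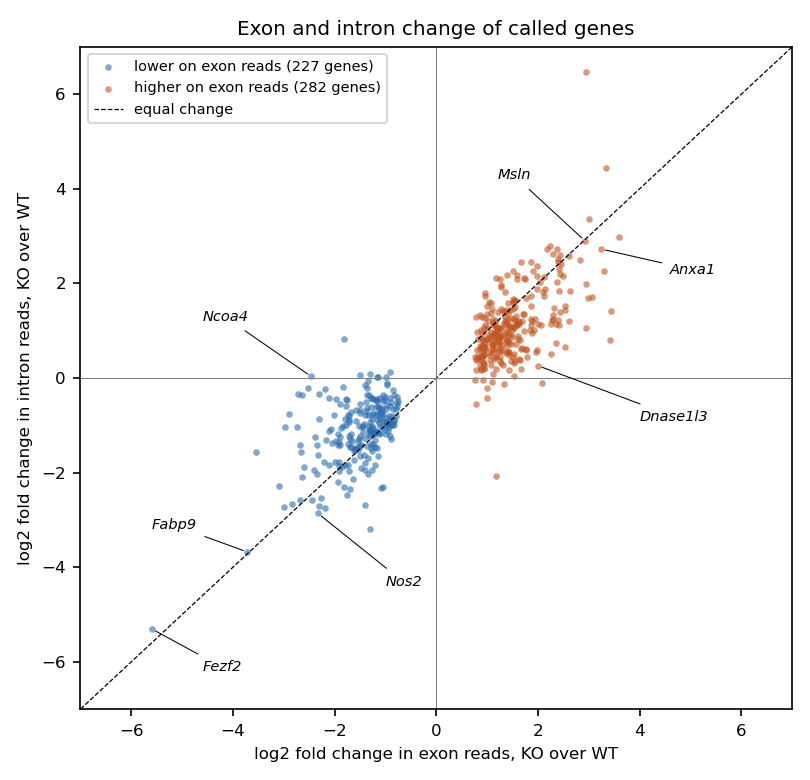
Each point is a gene called on exon reads, at its log2 fold change in exon reads (x axis) and in intron reads (y axis), KO over WT, blue for the 227 lower and orange for the 282 higher genes, with a dashed line at equal change. Fezf2 and Fabp9 lie close to the line, whereas Ncoa4 lies at -2.46 on the exon axis and 0.03 on the intron axis.

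A test of the difference between the exon and the intron change called 1 of 9498 genes (0.0105%), and 463 had an unadjusted p under 0.05. The called gene was Ncoa4, the receptor that carries ferritin to lysosomes. Its exon level was 232, 124 and 195 CPM in the WT and 28.5, 34.6 and 37.2 CPM in the KO libraries, and its intron level 92.3, 35.7 and 41.7 against 59.2, 57.2 and 58.6 intron CPM. The exon levels were far apart, and the intron levels overlapped. The difference of the log2 fold changes was -2.59 (SE 0.36, adjusted p = 0.0393). Without WT B 15 genes were called and Ncoa4 kept its call, and without any other library 0 genes were called. Dnase1l3, a secreted nuclease that clears DNA, was at 57.2, 108 and 69.6 CPM in exon reads of the WT and 349.6, 336 and 254 CPM in those of the KO. Its log2 fold change was 2.0 in exon and 0.26 in intron reads, and the difference did not pass the test (adjusted p = 0.403). Raly, an RNA-binding protein, had -2.11 in exon and -0.43 in intron reads (adjusted p of the difference 0.403). In other genes the larger change lay in the intron reads: Lgalsl had 0.55 in exon and 4.92 in intron reads, Camsap3 0.96 and -1.79, and Klhdc3 0.21 and -2.36. These were not called on exon reads or in the difference (adjusted p = 0.403 for each difference). Their intron reads were few, 1 in the WT and 43 in the KO for Lgalsl, 50 and 15 for Camsap3, and 40 and 8 for Klhdc3.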

How the data were processed

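RNA-seq of sorted mTECs was compared between the Fezf2 KO and its WT group (n = 3 each). Reads per gene were deposited by the authors as raw counts in exons and introns, from trimmed single reads with Ion Torrent barcodes, per the file headers. The builds mm10 and GRCm38 and the tool DESeq2 come from the submitters' processing notes. For the aligner, the strand setting and reads that match several places, nothing is given in the sources used here. Exon lengths and positions (unit other) are the authors' deposited annotation. Of the per-library columns 138 were not used.

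Counts were fitted with edgeR 4.0.16 (R 4.3.3): filterByExpr, TMM scaling, a quasi-likelihood test of KO against WT on the 6 libraries, Benjamini-Hochberg adjustment and a threshold of 0.05. Exon and intron reads were fitted alike, and their difference was tested as an interaction in 1 fit over both. Library letters follow the barcodes. Intron reads were taken from the column with the same library name as the exon reads. The script was tested on simulated counts. Alternatives were DESeq2 1.42.0, its size factors in edgeR, limma 3.58.1 voom with sample weights, no filter, at least 5 CPM in 3 libraries, a fit of 12 libraries, Aire_WT as control and each library left out. Named were Fezf2, Aire and Chd4, the 12 called genes of largest change in each direction with groups that did not overlap and at least 20 CPM, the 3 of highest level, the 3 of lowest p on intron reads and in the exon and intron difference, and members of gene lists. List members that missed the threshold were named after their values were seen. The lists and the comparison were chosen with earlier results of these data known.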

Additional observations from a re-analysis of the deposited data

How the results depend on the processing

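Settings moved the number of calls more than their direction. Against 765 calls (389 higher, 376 lower) on exon reads, DESeq2 gave 1273 (645 and 628), no filter 1387 (663 and 724), limma voom with sample weights 2500 (1193 and 1307), the fit of 12 libraries 1460 (666 and 794) and the Aire_WT group as control 3039 (1544 and 1495). The cause was not tested, except that voom gave WT B a weight of 0.163 against 0.906 to 1.84 for the others. Size factors gave 771 and a stricter filter 805. Leaving out 1 library gave 169 to 2034 calls, 102 to 1053 higher and 67 to 981 lower. The lowest number came without KO B and the highest without WT B. On intron reads the 303 calls (159 and 144) became 492 (249 and 243) with no filter and 87 to 536 (48 to 302 and 39 to 234) with 1 library left out. The difference between exon and intron change gave 0 to 15 calls (0 to 7 higher, 0 to 8 lower) over those fits. Of 184 called genes tracked, 183 kept the call with DESeq2, 184 with voom weights, 178 with 12 libraries, 184 without WT B, and 58 to 129 without 1 other library. None of the 184 changed direction in these fits.

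With Aire_WT as control 149 of 183 kept the call and 12 changed sign, to log2 fold changes of 0.21 for Bpifb1, 0.70 for Cd3d, 1.22 for Cd3g, 1.61 for Cd8a, 1.36 for Cd8b1, 0.20 for Ctrb1, 1.68 for Dntt, 0.13 for Gsta2, 0.045 for Krt84, 1.0 for Lat, 0.75 for Lck and 1.10 for Trbc1. The cause was not tested. The intron change of Ncoa4, 0.03, was 0.58 without WT A, -0.20 without WT B and -0.14 without WT C. It was not called in any of them. A count of unique reads in place of all exon reads was planned and not run.

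No paired analysis was possible because the columns carry no replicate number and the labels number the groups differently. Depth limits genes near 3 reads, 0.506 to 0.762 CPM before TMM scaling. With 3 libraries a group the spread of WT B sets much of the error: the biological coefficient of variation was 0.279, and 0.171 without it.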

Other observations

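Gene families, and short lists put together by hand, were chosen after the values were seen and are given as a description only. Over all genes tested 2.48% were higher and 2.4% lower. The lists put together by hand were those of the endoplasmic reticulum, the lysosome, and plakins and desmosomes. Of 26 genes of protein translocation and folding in the endoplasmic reticulum, 10 were higher in the Fezf2 KO and 0 lower. Os9 lost its call without KO B, and the others lost it without any 1 of the KO libraries. Of 13 heat shock and unfolded protein genes 0 were called (median log2 fold change 0.15), with 3 higher and 2 lower without WT B. Pdia5, a disulfide isomerase, had a log2 fold change of 1.63, Os9, a lectin of protein quality control, 1.29, Sil1, an exchange factor of the chaperone BiP, 1.10 and P4hb 0.93. Without WT B 19 of the 26 were higher, and against the Aire_WT group 22, with 0 lower in both. Of 23 lysosomal membrane proteins and hydrolases besides the cathepsins 8 were higher and 0 lower, with 9 higher and 1 lower without WT B and 8 higher and 1 lower against the Aire_WT group. Lamp1, a main protein of the lysosomal membrane, was at 459, 364 and 503 CPM in the WT and at 1843, 1734 and 1445 CPM in the KO libraries (log2 fold change 1.92). Gm2a, an activator of ganglioside breakdown, had a log2 fold change of 2.23. Lamp1 and Gm2a kept the call with each library left out, and the other higher lysosomal genes lost it without any 1 of the KO libraries. In 13 genes of envelope plakins and desmosomes Ppl (1.56), Evpl (1.44), Perp (1.34), Cdsn (1.29) and Dsc2 were higher and 0 lower, with 5 higher and 3 lower without WT B and 6 higher and 2 lower against the Aire_WT group. Of 6 uroplakins, proteins of the bladder surface, Upk1b (1.80) and Upk3bl (1.22) were higher and 0 lower. Among the higher plakin, desmosome and uroplakin genes only Ppl, Perp and Upk1b kept the call with each library left out.

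Some members of enzyme and secreted protein families were lower. Of 23 glutathione S-transferases 6 were lower, among them Gstm6 (-2.41) and Gstm1 (-1.66), and 1 was higher, Gsto1 (2.42), with 2 higher and 8 lower without WT B and 3 higher and 4 lower against the Aire_WT group. Of 17 carboxylesterases Ces2a (-2.33), Ces2e (-2.23) and Ces2c (-1.90) were lower and 0 higher, with 1 higher and 5 lower without WT B and 1 higher and 4 lower against the Aire_WT group. Saa1 (-2.34) and Saa2 (-1.41) were lower beside Saa3, out of 4 serum amyloid A genes. Both vanins tested, pantetheinases of gut and immune cells, were lower, Vnn3 at -2.31 and Vnn1 at -1.66. Of 14 tissue kallikreins 4 were lower and 0 higher, and reads of these close copies may have been divided between them. Mucins went both ways: Muc3 (-3.43), Muc1 (-1.31) and Muc13 were lower and Muc20 (2.64) and Muc5b higher out of 11. Aquaporins did too, with Aqp8 (-1.68) and Aqp3 (-1.09) lower and Aqp4 (2.06) and Aqp5 (1.97) higher out of 8.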
